A study of Sus scrofa with 2 samples.

Results

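The genes described here encode voltage-gated sodium and calcium channels with their accessory subunits, and HCN channels, in the olfactory mucosa of newborn piglets (Sus scrofa). They were taken from the count tables by symbol: SCN followed by digits and A or B, any symbol that begins with CACN, and HCN followed by 1 digit. Of the 25880 genes in the tables, 44 had such a symbol, and 38 of these reached 20 counted transcripts over both tables and are the members. They were 9 of 10 sodium channel alpha genes, 4 of 4 sodium channel beta genes, 9 of 10 calcium channel alpha-1 genes and 3 of 4 alpha-2-delta genes. The remainder were 4 of 4 calcium channel beta genes, 5 of 8 gamma subunit or TARP genes, and 4 of 4 HCN genes. CACNA1B and CACNA1H were listed only by Ensembl identifier (ENSSSCG00000033493 and ENSSSCG00000034266) and were named from a gene name table. Just inside the limit were SCN4A with 20 counted transcripts, CACNA1S with 28 and SCN10A with 30. Just outside it were CACNA2D4 with 19, SCN11A with 18, CACNG5 with 17, CACNG1 with 15, CACNG8 with 11 and CACNA1I with 10.

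In an olfactory sensory neuron, odorant binding opens a cyclic nucleotide-gated channel and then a calcium-activated chloride channel, and the depolarization is turned into action potentials by voltage-gated sodium channels. SCN9A encodes the sodium channel on which these neurons depend, and people who lack it have no sense of smell. Calcium channels admit calcium at the axon terminal, where N-type channels (CACNA1B) trigger transmitter release, while HCN channels open on hyperpolarization, bind cyclic AMP and carry a depolarizing current. Sodium channel beta, calcium channel alpha-2-delta and calcium channel beta subunits set how many pore subunits reach the membrane and how they gate.

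The study compared a wild type newborn piglet with a newborn piglet in which CFTR, the chloride channel mutated in cystic fibrosis, is knocked out, with 1 library of single nuclei from each. The nuclei came from frozen, sectioned olfactory neuroepithelium, a tissue that holds neurons, supporting cells, glands, glia, vessels and, at its borders, respiratory epithelium. The way the knockout allele was made, like the litter and sex of the piglets, was not among the details in the labels. With 1 library for each genotype there is no replicate check and no test: every interval below is an exact 95% interval that covers counting error only, and a difference between the libraries cannot be told apart from a difference between these 2 animals, dissections or captures.

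The wild type table held 4715 barcodes and 18731495 unique molecular identifiers (UMIs, 1 for each captured transcript), and the knockout table held 6054 barcodes and 16623086 UMIs. After the removal of 178 and 293 called doublets and 1 nucleus with few genes, 4536 wild type nuclei (median 2966 UMIs) and 5761 knockout nuclei (median 2093 UMIs) remained. The libraries shared 8 barcodes. CFTR itself stood at 88.9 CPM (UMIs of a gene per 1e+06 UMIs of the library or group) in the wild type library and 12.7 CPM in the knockout library, a ratio of 0.143 (0.122 to 0.166). Mitochondrial transcripts made up 2.83% and 1.31% of UMIs. A cluster of shallow nuclei, number 17, held 29 wild type and 954 knockout nuclei, and another, number 4, held 198 and 20. Neither could be named.

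Nuclei were clustered without the channel genes, and clusters were named "X-like" only where marker genes allowed it. The mature neuron-like class held 898 wild type and 918 knockout nuclei, and the immature neuron-like class held 856 and 551. Of 11 mature neuron markers, 9 were found in the tables and OMP and ANO2 were not among their symbols. Cluster 6 held 789 wild type and 179 knockout mature nuclei, and cluster 1 held 109 and 739, so different clusters supply most of this class in each library. Cluster 19, with 181 and 118 nuclei, carried neuronal precursor markers (NEUROD1, HES6, TOP2A, EZH2) but did not meet the naming rule and is given by number. Clusters 14 and 16 carried fibroblast markers and cluster 22 secretory cell markers (SCGB3A1, SPDEF), and these too are given by number. In all, 15 groups had at least 30 nuclei in both libraries.

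The channel genes as a set lay mostly in neurons. Cluster 19, immature and mature nuclei together made up 42.7% of wild type and 27.5% of knockout nuclei, and they held 81.6% and 77.5% of all UMIs of the 38 members. These shares leave out the shallow clusters 4 and 17, in which the 9 mature neuron markers summed to 3539 CPM (cluster 4, wild type) and 4090 CPM (cluster 17, knockout), against 3678 and 2941 CPM in the mature class. With both clusters counted as neuronal, an alternative chosen after the data were seen, 47.7% and 44.5% of nuclei were neuronal, and they held 82.2% and 79.7% of the members' UMIs. The summed level of the members was 7102 CPM in wild type and 7584 CPM in knockout mature neuron-like nuclei. It was 5534 and 6387 CPM in immature neuron-like nuclei, and 506 and 610.5 CPM in sustentacular-like nuclei, the supporting cells of the epithelium. At least 2-fold higher levels in neuronal than in other nuclei, in both libraries, were seen for 19 of 38 members (50.0%), against 9.69% of the 16259 genes with 20 UMIs. The opposite, at least 2-fold lower in neuronal nuclei in both libraries, held for 7 of 38 (18.4%), against 19.5% of all genes. With clusters 4 and 17 counted as neuronal these were 18 members against 9.48% of genes, and 7 members against 17.5% of genes. Among the 7 members first counted were CACNA1C, CACNA1G, CACNA2D3, CACNG6, SCN1A and SCN7A.

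The group with the highest level was the same in both libraries for 21 of 38 members. It was the mature neuron-like class for 6 of them, the immature neuron-like class for 5, and cluster 19, cluster 14, the glia-like class and the microvillar or ionocyte-like class for 2 each. The endothelial-like and respiratory ciliated-like classes each held 1. For 8 of the 21 the highest group's interval lay clear of that of the next group in both libraries. Among these were the sodium channel alpha genes SCN1A, SCN2A, SCN3A, SCN7A, SCN8A and SCN9A. The counts of 21 and of 8 were not made over all genes, so they cannot be called particular to the channels.

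**Figure D1:**
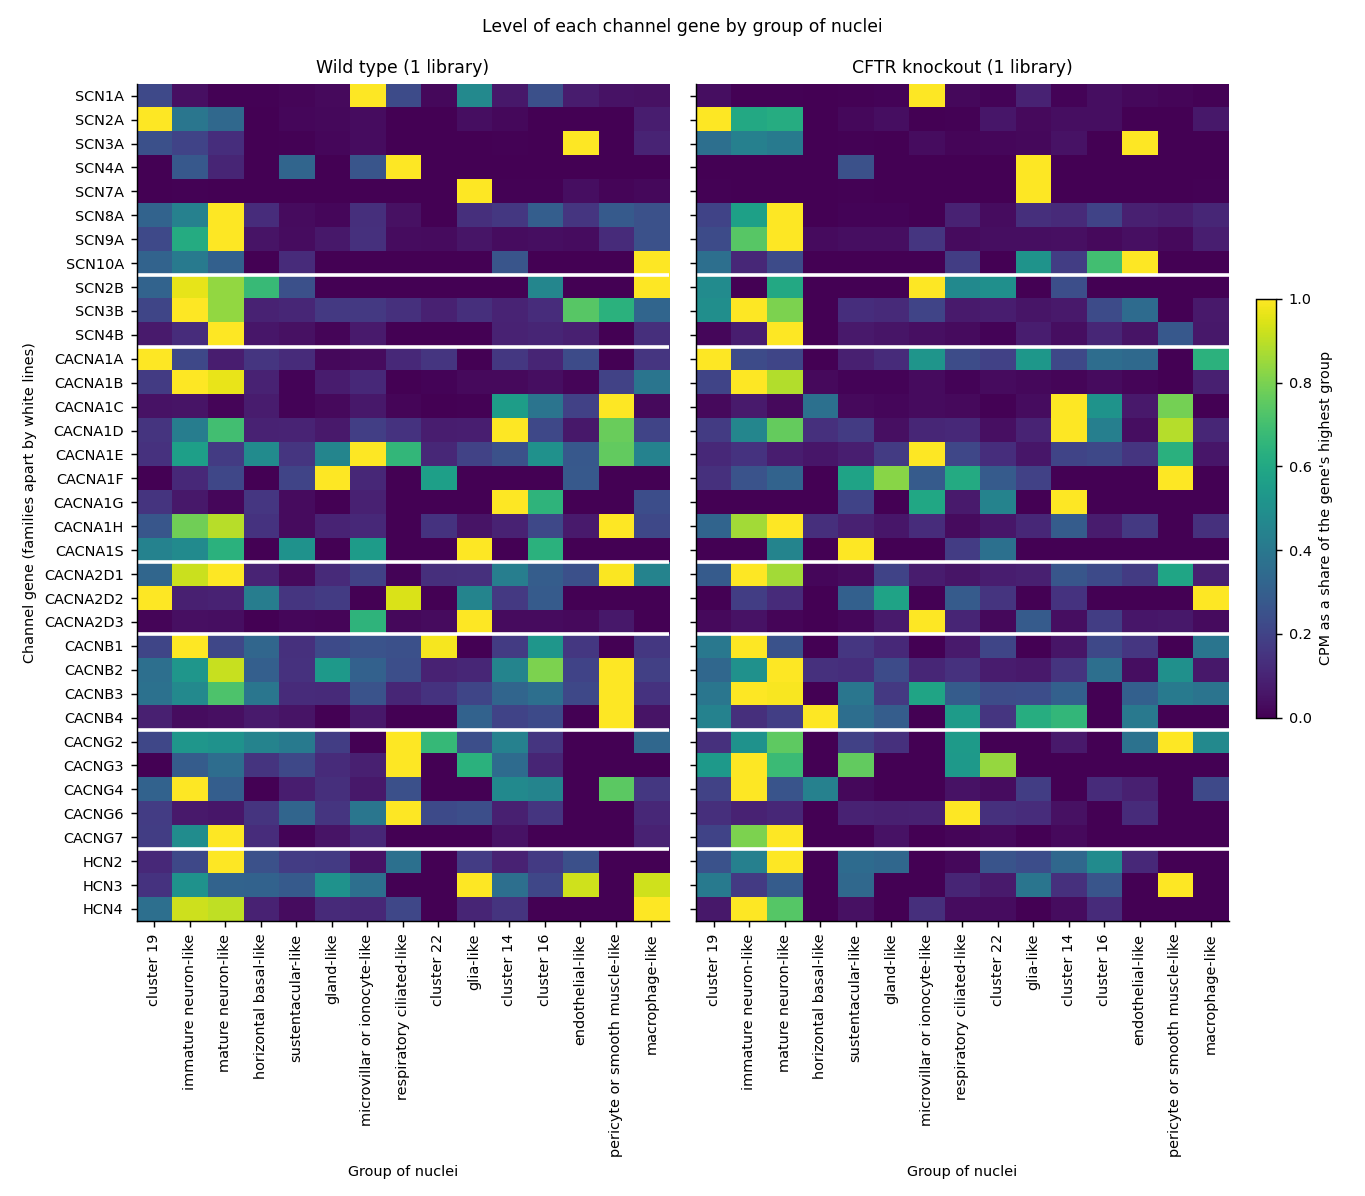
Level of 35 channel genes (rows, by family) in 15 groups of nuclei (columns) in each library, as CPM divided by the gene's highest CPM in that library; levels are not comparable between rows. SCN9A, SCN8A and SCN4B are brightest in mature neuron-like nuclei, SCN7A in glia-like and SCN3A in endothelial-like nuclei, in both panels.

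SCN9A stood at 1757 CPM (1715 to 1799) in wild type and 1820.5 CPM (1771 to 1870.5) in knockout mature neuron-like nuclei. In immature neuron-like nuclei it was 1078 and 1348 CPM, in cluster 19 389.6 and 418 CPM, and in sustentacular-like nuclei 55.8 and 68.5 CPM. The order mature, immature, cluster 19 was the same in both libraries, and no interval of these groups overlapped the next. At least 1 SCN9A UMI was found in 97.2% of wild type and 94.7% of knockout mature nuclei, against 13.8% and 14.3% of sustentacular-like nuclei, which are not neurons. Median depth was 3805 and 2849 UMIs in the mature class and 2683 and 2577 UMIs in the sustentacular-like class. After every nucleus was thinned to 1000 UMIs, which left out 27 and 37 shallower mature and 13 and 26 shallower sustentacular-like nuclei, the shares were 80.5% and 81.5% against 6.46% and 5.18%. Above that low share stood the microvillar or ionocyte-like nuclei, with 242 and 283 CPM and thinned shares of 22.8% and 21.7%. In macrophage-like nuclei SCN9A was 437 CPM in wild type and 153 CPM in knockout, while 82 and 14 CACNA1B UMIs were counted there. In those nuclei 10 of 10 and 9 of 10 immature neuron markers were detected (CRMP1 was at 0 in knockout), with a sum of 1491 and 726 CPM. Of the 9 mature neuron markers, 9 and 7 were detected (CNGA2 and CNGB1 were at 0 in knockout), with a sum of 979 and 1134 CPM. Their part in the channel levels of macrophage-like nuclei was not tested.

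SCN8A, the sodium channel of axon initial segments and nodes, had its highest level in mature neuron-like nuclei, at 109.7 CPM in wild type and 157 CPM in knockout, with 48.3 and 89.7 CPM in immature nuclei.

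SCN2A, a sodium channel of early unmyelinated axons, was highest in cluster 19, at 127 CPM (117 UMIs) in wild type and 86.3 CPM (52 UMIs) in knockout. It was 49.9 and 52.0 CPM in immature and 43.0 and 53.6 CPM in mature nuclei, and the intervals of these classes overlapped in both libraries. SCN1A, known from inhibitory interneurons, was near the floor in mature nuclei with 2.34 and 4.18 CPM. Its highest group was the microvillar or ionocyte-like class, with 313 CPM (274 to 356) in wild type and 991 CPM (880 to 1113) in knockout. There 50.0% and 55.4% of nuclei held an SCN1A UMI, against 0.676% and 1.19% of sustentacular-like nuclei, and after thinning 30.4% and 43.3% against 0.138% and 0.357%. These epithelial nuclei carry proton pump and FOXI1-type ionocyte markers, and number 80 and 65. Glia-like nuclei had 147 and 93.4 CPM of SCN1A. SCN1A and SCN9A both overlap the non-coding RNA gene LOC110257170 in the RefSeq annotation of Sscrofa11.1. Reads of overlapping genes cannot be told apart where the counting strand is unknown, and here that strand was not stated in the labels.

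SCN7A encodes an atypical, sodium-sensing member of the family that is known from glia. It stood at 1103 CPM (1003 to 1209) in wild type and 745 CPM (666 to 832) in knockout glia-like nuclei, and between 0 and 40.8 CPM in each of the other 14 groups in both libraries. An SCN7A UMI was present in 74.4% and 52.2% of glia-like nuclei and in 0.541% and 0.512% of sustentacular-like nuclei, and after thinning in 55.9% and 36.9% against 0.413% and 0.179%. SCN3A, the sodium channel known from fetal brain, had its highest level outside the epithelium's neurons, in endothelial-like nuclei with 170.1 and 104.5 CPM. Within that class it lay in cluster 7, a vessel cluster marked by MMRN1, RELN and TBX1, at 334 CPM (50 UMIs in 34 nuclei) and 241 CPM (33 UMIs in 62 nuclei). In the other endothelial-like cluster, number 9, SCN3A had 0 and 13 UMIs. SCN4A, of skeletal muscle, and SCN10A, of pain neurons, were near the floor with 17 and 26 UMIs over all kept nuclei.

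Among the beta subunits, which anchor sodium channels and tune their gating, SCN4B followed the mature class. Its level was 76.3 CPM (293 UMIs) in wild type and 87.4 CPM (251 UMIs) in knockout mature nuclei, against 9.60 and 7.14 CPM in immature ones. SCN3B was found in both neuron classes, with 73.6 and 84.1 CPM in immature and 61.7 and 67.5 CPM in mature nuclei, and the intervals of these classes overlapped in both libraries. SCN2B had 31 and 17 UMIs in all and its highest group differed between the libraries.

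CACNA1B, the pore of the N-type calcium channel, was 718 CPM in wild type and 923 CPM in knockout immature nuclei and 695 and 818 CPM in mature nuclei. Neuronal nuclei held 94.5% and 95.7% of its UMIs, and sustentacular-like nuclei had 8.33 and 10.4 CPM. CACNA1H, a low-threshold T-type pore, had a like distribution with 73.3 and 71.4 CPM in immature and 83.6 and 82.8 CPM in mature nuclei. CACNA1A, the P/Q-type pore, did not: it was highest in cluster 19 with 44.6 and 26.6 CPM and only 3.65 and 5.57 CPM in mature nuclei. The R-type pore CACNA1E had its highest level in the microvillar or ionocyte-like class, with 61.7 and 189.9 CPM, and reached 56.4 and 46.2 CPM in cluster 5, the early part of the immature class.

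The L-type pores CACNA1D and CACNA1C had their highest levels outside the neurons. CACNA1D was still among the 19 members at least 2-fold higher in neuronal nuclei, which held 69.5% and 57.8% of its UMIs. CACNA1D was 587 CPM in wild type and 730.1 CPM in knockout nuclei of cluster 14, one of the clusters with fibroblast markers. It was 453 and 649.7 CPM in pericyte or smooth muscle-like nuclei, 409 and 558 CPM in mature neurons and 249.7 and 335 CPM in immature ones. In cluster 14 and the pericyte or smooth muscle-like class the intervals overlapped in both libraries. CACNA1C, the L-type pore of smooth and cardiac muscle, was 391 and 289 CPM in pericyte or smooth muscle-like nuclei and 218 and 365 CPM in cluster 14, but 5.47 and 9.75 CPM in mature neurons. CACNA1F, CACNA1G and CACNA1S had 100, 50 and 27 UMIs over all kept nuclei, too few to place except that CACNA1G had 16 of its 33 wild type and 7 of its 17 knockout UMIs in cluster 14.

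CACNA2D1, the alpha-2-delta subunit bound by gabapentin, was broad. It stood at 1558 and 1549 CPM in mature nuclei, 1432 and 1800.1 CPM in immature nuclei, and 1547 and 1059 CPM in pericyte or smooth muscle-like nuclei. Sustentacular-like nuclei had 38.3 and 52.2 CPM. CACNA2D3, from the same family, was low in neurons, with 9.12 and 5.22 CPM in mature nuclei. It was highest in glia-like nuclei of the wild type library (249.9 CPM, against 109.8 CPM in knockout) and in microvillar or ionocyte-like nuclei of the knockout library (383 CPM, against 162 CPM in wild type). CACNA2D2 had 17 UMIs in each library.

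CACNB2, a cytoplasmic subunit that carries calcium channel pores to the membrane, was detected in every group. Mature nuclei had 1417 CPM in wild type and 1462 CPM in knockout, immature nuclei 815 and 740.2 CPM, and sustentacular-like nuclei 219 and 193 CPM. Within the gland-like class it was unevenly spread: cluster 12, marked by BPIFB3, BPIFB4 and BPIFB6, had 1552 and 614 CPM, and cluster 8, marked by SLC6A11, had 371 and 153 CPM. In the same RefSeq annotation the protein-coding gene LOC100524391 overlaps CACNB2, CHDH overlaps CACNA1D, LRTM1 overlaps CACNA2D3 and the non-coding RNA gene LOC106505021 overlaps CACNA1E, so the limit given for SCN1A holds for these too. CACNB3 and CACNB1 were low and mainly neuronal, with CACNB3 at 33.9 and 29.2 CPM in mature nuclei and CACNB1 at 20.8 and 29.1 CPM in immature nuclei. CACNB4 had 75 and 54 UMIs in all.

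Some CACNG genes encode TARPs, partners of AMPA-type glutamate receptors, and others encode subunits named for muscle calcium channels. CACNG7, a TARP, was a neuron transcript: 35.7 and 33.1 CPM in mature nuclei, 17.3 and 26.5 CPM in immature nuclei, and 0 or 1 UMI in glia-like, cluster 16, endothelial-like and macrophage-like nuclei. CACNG4 was highest in immature nuclei with 20.8 and 25.5 CPM, and was 6.25 and 6.61 CPM in mature nuclei. CACNG6, of the muscle type, was highest in respiratory ciliated-like nuclei, at 30.7 CPM (6 UMIs in 33 nuclei) in wild type and 36.9 CPM (90 UMIs in 464 nuclei) in knockout. CACNG2 and CACNG3 had 135 and 93 UMIs in all.

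Among the HCN genes, HCN2 was 27.9 and 19.8 CPM in mature nuclei and 6.09 and 8.67 CPM in immature nuclei. HCN4 was 21.6 and 19.1 CPM in mature nuclei and 22.02 and 26.0 CPM in immature nuclei, with overlapping intervals in both libraries. HCN3 had 52 and 36 UMIs in all, and its annotation overlaps PKLR and CLK2.

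The neuron-lineage groups can be set in the order of their markers: cluster 19 (precursor markers), cluster 5 (TEX15, PURG), cluster 0 (GAP43) and the mature class. These nuclei were captured at 1 age, so the order is of marker genes, not of measured time. SCN9A was higher at each step in both libraries, at 389.6, 746, 1344 and 1757 CPM in wild type and 418, 1087, 1409 and 1820.5 CPM in knockout. SCN4B, at 4.22 and 4.39 CPM in cluster 0, had the steepest step from there to the mature class, 18.1-fold (9.70 to 38.1) in wild type and 19.9-fold (9.51 to 50.0) in knockout, among the members with at least 100 UMIs over both of these groups in each library. HCN2 was 4.13-fold (2.43 to 7.49) and 2.26-fold (1.24 to 4.39) higher over the same step.

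Other members peaked before the mature class. CACNA1E was 8.71, 56.4, 17.7 and 10.7 CPM along the 4 groups in wild type and 21.6, 46.2, 23.2 and 15.3 CPM in knockout, the knockout value of cluster 5 resting on 17 UMIs. CACNA1B was highest in cluster 0, at 797 and 979.5 CPM. CACNG4 was 24.9 and 28.9 CPM in cluster 0 and 6.25 and 6.61 CPM in the mature class, a ratio of 0.251 (0.150 to 0.410) and 0.229 (0.127 to 0.399). CACNB1 had a ratio of 0.318 (0.166 to 0.588) and 0.284 (0.160 to 0.492) over that step. SCN2A was lower from cluster 19 to cluster 0 in both libraries, 127, 59.6 and 42.2 CPM in wild type and 86.3, 78.8 and 45.8 CPM in knockout, where the intervals of clusters 19 and 5 overlapped.

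**Figure D2:**
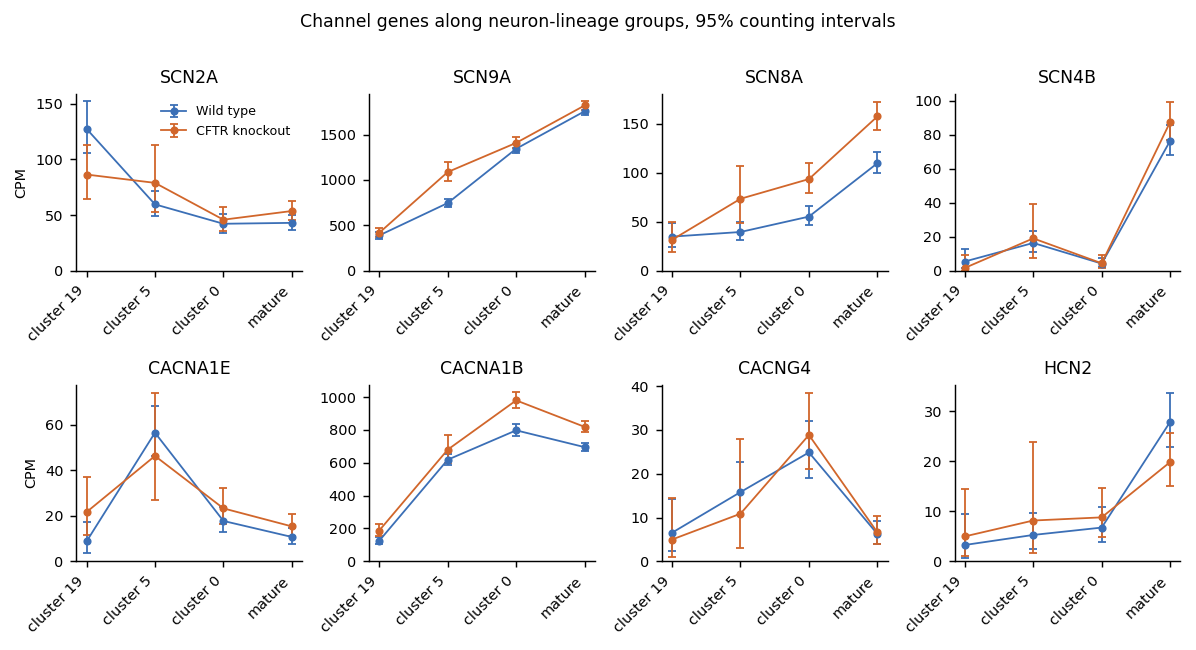
CPM (vertical axes, each from 0) of 8 channel genes in 4 neuron-lineage groups ordered by their markers, with 1 library of each genotype (blue wild type, orange knockout) and exact 95% counting intervals. SCN4B is low until the mature class, CACNA1E peaks in cluster 5, and SCN2A is highest in cluster 19.

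Over the 15 groups, CACNA1B, CACNG7 and HCN4 were among the 5 members whose levels followed SCN9A most closely. The mean over both libraries of Pearson's r of log2 (CPM + 1) was 0.88, 0.87 and 0.80. These correlations are descriptions of 15 groups that share a library, a capture and free RNA.

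Mature nuclei were also set apart by NQO1 and NCAM2, known in rodents as markers of different zones of the epithelium. Nuclei with a UMI of NQO1 and none of NCAM2 numbered 73 in wild type and 226 in knockout, and those with NCAM2 alone numbered 568 and 220. CACNG7 was 3.40 CPM in the NQO1 and 40.6 CPM in the NCAM2 nuclei of the wild type library, a ratio of 0.084 (0.0021 to 0.476) that rests on 1 UMI in the NQO1 nuclei. In the knockout library it was 16.9 and 57.8 CPM, a ratio of 0.292 (0.141 to 0.560). SCN3A had the opposite order, with 44.2 and 19.7 CPM in wild type (ratio 2.24, 1.12 to 4.18) and 60.5 and 30.1 CPM in knockout (ratio 2.01, 1.19 to 3.46). SCN9A differed little, with ratios of 1.08 (0.988 to 1.18) and 0.974 (0.904 to 1.05). CACNG7 and SCN3A were chosen after the values of the 20 and 19 members with enough UMIs were seen, as those whose intervals left out 1 in both libraries.

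Across all nuclei, most members were lower in the knockout library. The log2 ratio of knockout to wild type CPM was below 0 for 26 of 38 members, against 40.1% of all genes, and its median was -0.29 over the members and 0.10 over the 16259 genes. At least 2-fold lower were 2 members, SCN4A and CACNG3, or 5.26%, against 3.14% of all genes. At least 2-fold higher was 1, CACNG6, or 2.63%, against 6.96% of all genes. SCN4A had 14 and 3 UMIs, CACNG3 had 69 and 24, and CACNG6 had 78 and 144. CACNB2 was 786 CPM in wild type and 521 CPM in knockout (log2 ratio -0.59, -0.63 to -0.55). SCN9A was 739 and 601 CPM (-0.30, -0.34 to -0.26).

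In counts summed over all nuclei, fewer cells of a type and less RNA per cell cannot be told apart. Neuronal nuclei gave 52.7% of all UMIs in wild type and 35.9% in knockout, or 54.0% and 39.9% with clusters 4 and 17 counted. Of the 19 members that were at least 2-fold higher in neuronal nuclei in both libraries, 16 had a log2 ratio below 0 over all nuclei, with a median of -0.30. When the 8 groups with at least 100 nuclei in both libraries were given equal weight, 6 of these 19 were below 0. The median of the 19 was then 0.11. Neither count below 0 was made over the 1576 genes that were likewise at least 2-fold higher in neuronal nuclei. Over all 38 members the median under equal weights was -0.023. SCN9A was then at 0.11, CACNA2D1 at 0.071, CACNA1B at 0.27, SCN3B at 0.31, CACNA1H at 0.028 and CACNG7 at 0.11, each with the opposite sign. CACNB2 remained below 0, at -0.55. CACNG6 was at -0.59 under equal weights, and CACNA2D3 was at -0.17 against 0.44 over all nuclei. The equal weights leave out the respiratory ciliated-like class (33 wild type and 464 knockout nuclei), where CACNG6 is highest, and the microvillar or ionocyte-like class. These 2 values therefore do not even out the shares of those classes. CACNG6 was at 0.26 (-0.92 to 1.75) in the ciliated class, and CACNA2D3 at 1.24 (0.85 to 1.62) in the microvillar class.

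Within mature neuron-like nuclei the members as a set differed little between the libraries. The median log2 ratio of the 27 members with 20 UMIs was 0.13, against 0.07 over 12075 genes. At least 2-fold lower was 1 member, CACNG3 (21 and 6 UMIs), or 3.70%, against 3.08% of genes, and at least 2-fold higher was none, against 5.36% of genes. SCN9A had a log2 ratio of 0.05, CACNA2D1 of -0.01 and CACNB2 of 0.04, all with intervals that held 0. Values clear of 0 by counting error were 0.45 (0.35 to 0.55) for CACNA1D, 0.52 (0.33 to 0.72) for SCN8A and 0.24 (0.15 to 0.32) for CACNA1B. So were 0.94 (0.53 to 1.36) for SCN3A, -0.49 (-0.98 to -0.01) for HCN2 and -1.39 (-2.99 to -0.03) for CACNG3. CACNA1B was at 0.14 with TMM factors and 0.098 when each nucleus was named on its own rather than by its cluster.

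SCN3A was 22.1 CPM in wild type and 42.5 CPM in knockout mature nuclei, a log2 ratio of 0.94 (0.53 to 1.36). The NQO1 nuclei, in which SCN3A was higher, were 73 in wild type and 226 in knockout. SCN3A was 44.2 and 60.5 CPM inside the NQO1 nuclei, from 13 and 43 UMIs. Inside the NCAM2 nuclei it was 19.7 and 30.1 CPM, from 51 and 24 UMIs. The part of the uneven NQO1 numbers in the SCN3A ratio was not tested. Because clusters 1 and 6 were so unevenly shared, each was also compared alone. CACNA1D was at 0.52 in cluster 1 and 0.49 in cluster 6, and CACNA1B at 0.29 and 0.17. SCN8A was at 0.36 in both, with an interval clear of 0 only in cluster 6. SCN3A was at 1.09 (-0.18 to 2.75) in cluster 1, from 5 wild type UMIs, and at 0.24 (-0.53 to 0.95) in cluster 6. The 109 wild type nuclei of cluster 1 had a median of 1843 UMIs, against 4039 in cluster 6.

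In immature neuron-like nuclei the median log2 ratio of 28 members was 0.26, against 0.03 over 12344 genes. At least 2-fold lower was 1 member, SCN7A (23 and 2 UMIs), or 3.57%, against 5.75% of genes, and at least 2-fold higher was none, against 2.95% of genes. SCN8A was 48.3 CPM in wild type and 89.7 CPM in knockout (0.89, 0.60 to 1.19). SCN9A was 0.32 (0.25 to 0.39), CACNA2D1 0.33 (0.27 to 0.39), CACNA1B 0.36 (0.28 to 0.45) and CACNA1D 0.43 (0.28 to 0.57) higher on the log2 scale. These values moved with how nuclei were chosen and named, without a change of direction: SCN9A lay between 0.16 and 0.50, CACNA2D1 between 0.20 and 0.44 and CACNA1B between 0.20 and 0.51 over 11 alternatives. Cluster 5 supplied 256 of 856 wild type and 95 of 551 knockout nuclei of the class. SCN9A was 1344 and 1409 CPM in cluster 0 and 746 and 1087 CPM in cluster 5, and SCN8A 55.2 and 93.5 CPM in cluster 0 and 39.5 and 73.4 CPM in cluster 5.

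In cluster 19, 17 members had 20 UMIs and their median was -0.00054, against 0.05 over 9299 genes. None was at least 2-fold lower (3.67% of genes) and 2 were at least 2-fold higher (11.8%, against 3.89% of genes), SCN3B with 14 and 25 UMIs and CACNA1E with 8 and 13. The CACNA1E interval held 0 (-0.07 to 2.79). Intervals lay above 0 for 4 members and below 0 for 3, but the share of all genes with such intervals was not counted. SCN1A was 68.6 and 34.9 CPM (-0.98, -1.76 to -0.24) and SCN2A 127 and 86.3 CPM (-0.56, -1.06 to -0.08). Higher in knockout were CACNA1B (0.58, 0.20 to 0.97) and CACNA1D (0.52, 0.05 to 0.99).

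**Figure D3:**
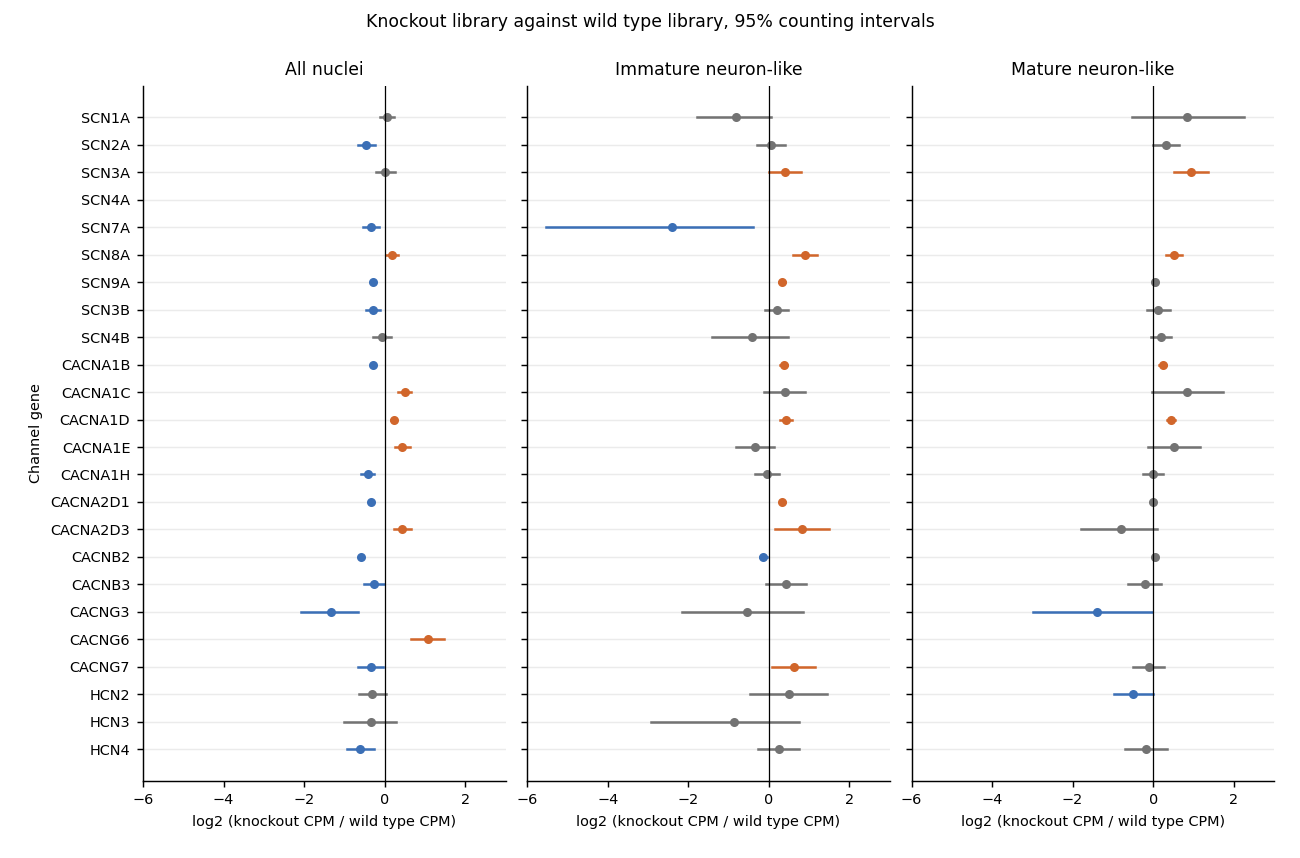
Log2 ratio of knockout to wild type CPM of 24 channel genes over all nuclei, in immature neuron-like and in mature neuron-like nuclei, with exact 95% counting intervals; blue and orange mark intervals below and above 0, and genes with under 20 UMIs in a panel have no point. SCN9A, CACNA2D1 and CACNA1B lie below 0 over all nuclei and have intervals above or across 0 in both neuron classes.

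Outside the neurons, the sustentacular-like class had 15 members with 20 UMIs. At least 2-fold lower was 1, CACNG6 (24 and 6 UMIs), or 6.67%, against 3.68% of genes. At least 2-fold higher were 3, or 20.0%, against 5.06% of genes: CACNA1D with 58.3 and 127.7 CPM (1.13, 0.82 to 1.45), CACNA1C with 10 and 17 UMIs and CACNA1H with 7 and 13. The CACNA1C interval was 0.03 to 2.53, and that of CACNA1H held 0 (-0.06 to 2.94). Scaling by TMM factors lowered every log2 ratio by 0.115 in this class and by 0.112 in the gland-like class, and turned none of the directions given for these classes. In gland-like nuclei CACNA1B was 55.3 and 8.24 CPM (59 and 5 UMIs). All 10 immature and all 9 mature neuron markers were detected in those nuclei in both libraries, with sums of 525 and 406 CPM and of 559 and 846 CPM, and their part in these values was not tested. CACNA2D1 was 188 and 359 CPM in the gland-like class, but its clusters went opposite ways, from 170.1 to 546 CPM in cluster 8 and from 217 to 63.9 CPM in cluster 12. When each nucleus was named on its own, its log2 ratio in gland-like nuclei was -0.086, against 0.93 by cluster.

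In glia-like nuclei SCN7A had a log2 ratio of -0.57 (-0.78 to -0.35), SCN1A of -0.65 (-1.27 to -0.05) and CACNA2D3 of -1.19 (-1.72 to -0.67). In cluster 14, CACNA1C was 218 and 365 CPM (0.75, 0.52 to 0.98) and CACNA1D 587 and 730.1 CPM (0.31, 0.17 to 0.46). CACNA1E was 15.3 and 38.9 CPM there (1.35, 0.52 to 2.24), and CACNA1H 8.99 and 24.0 CPM (1.42, 0.34 to 2.62).

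Among the 3 members with 20 UMIs in each of the 15 groups, CACNB2 was lower in knockout in the most of them. Its level was lower in the knockout library in 14 of 15 groups, which was so for 2.69% of the 1637 genes with 20 UMIs in every group. In 8 of 15 groups it was at least 2-fold lower, which was so for 0.916% of those genes. CACNB2 was named for its UMI count, but this count across groups was made after its values were seen. In cluster 14 it was 698 CPM (649.5 to 749) in wild type and 220.0 CPM (194 to 248) in knockout, and a CACNB2 UMI was found in 47.8% and 20.8% of nuclei, or 38.6% and 16.2% after thinning. In endothelial-like nuclei it was 313 and 54.5 CPM (log2 ratio -2.52, -3.23 to -1.86), in microvillar or ionocyte-like nuclei 481 and 155 CPM (-1.63), in gland-like nuclei 836 and 331 CPM (-1.33) and in cluster 16 1239 and 534 CPM (-1.22). Sustentacular-like nuclei were at -0.18 (-0.39 to 0.02), and the mature neuron-like class was the 1 group above 0. CACNB2 is itself at least 2-fold higher in neuronal nuclei, so neuron markers were summed in the same groups. The 10 immature neuron markers were lower in knockout in 15 of 15 groups. In the 12 groups outside the neurons their sum ran from 353 to 1491 CPM in wild type and from 232 to 734 CPM in knockout, with a median log2 ratio of -0.47 (lowest -1.45, highest -0.23), against a median of -1.22 for CACNB2. The 9 mature neuron markers were higher in knockout in each of those 12 groups, with a median log2 ratio of 0.32. In cluster 14 the immature markers summed to 1015 and 685 CPM, and the mature markers to 834 and 1084 CPM. The part of neuronal RNA in the CACNB2 values was not tested. CACNA1D and CACNA2D1, the other members so widely measured, were lower in 6 and 11 groups and at least 2-fold lower in 0 and 3.

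**Figure D4:**
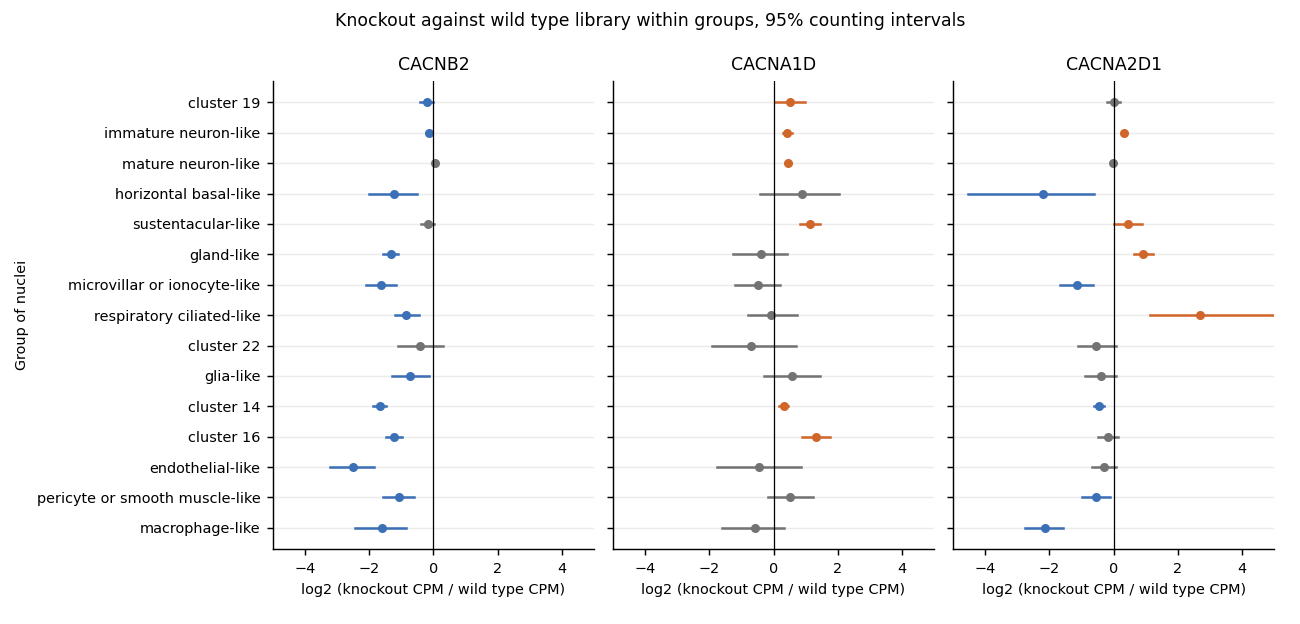
Log2 ratio of knockout to wild type CPM of CACNB2, CACNA1D and CACNA2D1 in 15 groups of nuclei, with exact 95% counting intervals; blue and orange mark intervals below and above 0. CACNB2 lies below 0 in 14 groups and at 0.04 in mature neuron-like nuclei, while CACNA2D1 lies on both sides.

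Other genes that bind or regulate these channels were taken as a list of 48, of which 46 were found and 45 had 20 UMIs. The list holds ankyrins and spectrins of the axon initial segment, intracellular FGFs that bind sodium channels, the NALCN complex, active zone proteins, STAC and RGK proteins and others. Over all nuclei its median log2 ratio was -0.08, with 3 of 45 genes at least 2-fold lower (6.67%, against 3.14% of all genes) and 1 at least 2-fold higher (2.22%, against 6.96%). FAM155A, an accessory subunit of the sodium leak channel NALCN, was 94.3 CPM in wild type and 40.2 CPM in knockout (-1.23, -1.37 to -1.10). In mature nuclei it was 154.7 and 56.7 CPM, while NALCN itself, named after its values were seen, was 272 and 342 CPM there. RIMS2, an active zone protein, was at -0.81 and CBARP, which binds calcium channel beta subunits, at -0.69. CATSPER1 and PRRT2, the remaining genes at least 2-fold lower, had 55 and 16, and 14 and 5 UMIs. STAC, which slows inactivation of L-type channels, was at 1.21 (76 and 155 UMIs), FGF14 at 0.97 and FGF11 at 0.87. In cluster 14 STAC was 12.6 and 83.5 CPM, beside the higher CACNA1C and CACNA1D given above. The list's median was 0.10 in mature and 0.21 in immature neuron-like nuclei.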

How the data were processed

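The authors deposited 1 table of raw UMI counts for each library, with genes in rows and nuclei in columns. Per the submitters' processing notes, the tools were Seurat 4.0, R 4.0.2 and Cell Ranger, without their roles. For the build, annotation, strand and transcript part, nothing was stated in the labels or file headers. From these counts, nuclei with under 200 genes and called doublets (Scrublet in scanpy 1.11.5) were left out, and counts were scaled to 10000 UMIs per nucleus for clustering. Clusters (Leiden, resolution 1) came from 2000 variable genes without the channel genes, 30 components and 15 neighbours, with Python 3.11.15. A cluster was named from 3 or more detected markers of its type. Naming also took a depth limit (0.333 of the library's median) and a check of the markers among the cluster's 10 top genes. The thresholds for this were set after the data were seen. UMIs were summed by library and group, as CPM with exact Poisson intervals, ratios with exact conditional binomial intervals and shares with exact Clopper-Pearson intervals. In a group, members with at least 20 UMIs over both libraries were compared, and 2-fold is the size called lower or higher. No test was possible with 1 library for each genotype. Ratios and intervals were tested on simulated data. TMM factors came from edgeR 4.0.16, and only as an alternative. Named are the 20 members with the most UMIs, all HCN genes, members past 2-fold over all nuclei with an interval clear of 0, and the 3 with the most UMIs in each class of at least 100 nuclei, with the 5 members most like SCN9A. Some members enter the counts but are not reported singly here. Of the regulators, the 3 highest and 3 lowest ratios among those with 100 UMIs are named. The members and lists were chosen with earlier results of these data known. Sequences of the channel genes were not used here.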

Additional observations from a re-analysis of the deposited data

Results flagged for a closer look

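Only groups with at least 100 nuclei in both libraries were searched here. CACNA2D1 and SCN9A had knockout to wild type ratios on opposite sides of 0 in different groups, each with at least 100 UMIs and a counting interval clear of 0. With 1 library for each genotype the differences between groups were not tested. CACNA2D1 had a log2 ratio of 0.33 in immature neuron-like, 0.45 in sustentacular-like and 0.93 in gland-like nuclei, and of -0.46 in cluster 14. In the gland-like class its clusters went opposite ways, from 170.1 to 546 CPM in cluster 8 and from 217 to 63.9 CPM in cluster 12. SCN9A was at 0.32 in immature neuron-like and -0.75 in gland-like nuclei, the latter from 121 and 41 UMIs. Outside the neurons these directions depended on how nuclei were named: with each nucleus named on its own, CACNA2D1 was at -0.65 in sustentacular-like and -0.086 in gland-like nuclei, and SCN9A at 1.18 in gland-like nuclei. In smaller classes CACNA2D1 was at 2.70 (ciliated), -1.15 (microvillar), -2.14 (macrophage) and -0.55 (pericyte), and SCN9A at -1.51 (macrophage), with intervals clear of 0. With smaller classes counted, SCN1A (1.66 microvillar, -0.65 glia) and CACNA2D3 (1.24 and -1.19) also lay on both sides.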

How the results depend on the processing

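No paired analysis was possible because each genotype has 1 library. The median log2 ratio of the members over all nuclei was -0.29. It was -0.39 with TMM factors and -0.39 with the median of ratios, and -0.023 with equal class weights. The count of members at least 2-fold lower, 2, was 1 among members with at least 100 UMIs and 4 with equal class weights. The count at least 2-fold higher, 1, was 0 without nuclei of unnamed clusters, with either other scaling, with nuclei weighted equally, with equal class weights, and without the 223 and 300 nuclei over 3 times their library's median UMIs, an alternative chosen after the data were seen. It was 3 with no filter on UMIs. The medians in mature and immature neuron-like nuclei stayed above 0 under all 14 and 12 alternatives. Single named members were followed in these classes only where they had at least 100 UMIs and an interval clear of 0. These were 5 members in mature and 9 in immature nuclei. Of their values, 4 of 65 in mature and 20 of 99 in immature nuclei left the counting interval of the value reported, and none turned its direction. Members with intervals that held 0, such as SCN9A in mature nuclei, were not followed in this way. Equal class weights reversed 8 of the 26 named members over all nuclei: CACNA2D1 to 0.071, SCN9A to 0.11, CACNA1B to 0.27, CACNA1H to 0.028, SCN3B to 0.31, CACNA2D3 to -0.17, CACNG7 to 0.11 and CACNG6 to -0.59. These weights leave out groups with under 100 nuclei in either library, among them the respiratory ciliated-like and microvillar or ionocyte-like classes. When each nucleus was named on its own, CACNA2D1 was at -0.65 in sustentacular-like and -0.086 in gland-like nuclei, and SCN9A was at 1.18 in gland-like nuclei. The cause of these reversals was not tested. Shares of nuclei with a UMI depend on depth, so the thinned shares are given beside them.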
